A study of Mus musculus with 24 samples.

Results

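The changes of the third day of RANKL were taken from 6 arrays at 72 h set against 6 arrays at 48 h, which are 12 of the 24 Illumina mouse bead arrays of the series. The arrays were chosen by their labelled time alone. The cells were bone marrow-derived macrophages (BMMs) of male C57BL/6 mice aged 5 weeks, grown with M-CSF at 30 ng/mL for 72 h and then given RANKL at 100 ng/mL while M-CSF was kept at 30 ng/mL. The other arrays, 6 at 0 h without RANKL and 6 at 24 h, served for comparison. No genetic change was labelled in any group. Cells kept in M-CSF alone to 48 h or 72 h were not analysed here, so RANKL and time in culture cannot be told apart. The labels do not say whether the 6 samples of a time were separate cultures or animals, so the p-values rest on a spread that may be technical.

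RANKL is the cytokine that turns macrophage precursors into osteoclasts, the cells that resorb bone. It acts through its receptor RANK on NF-κB and MAP kinases, which induce Fos and then Nfatc1, the master transcription factor of the lineage. The precursors then leave the cell cycle, fuse, and make the proton pump and proteases that dissolve bone. In mouse cells RANKL also induces interferon beta, which feeds back on Fos.

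The 12 arrays were much alike. Pearson's r over all genes tested was 0.994 to 0.998 between arrays of 48 h and 0.995 to 0.998 between arrays of 72 h. Of 45281 probes, 15974 to 16779 were detected on an array of 48 h and 16042 to 16485 on an array of 72 h (detection p under 0.05). The number of arrays limits the precision. Replicate 4 correlated least with the other arrays of its time, with a median r of 0.995 at both times. Of 36 measured macrophage genes, 33 were detected on all 6 arrays at 48 h and 33 at 72 h, and for 18 measured osteoclast resorption genes these counts were 17 and 17. Markers of neutrophils, which are another cell of the marrow, moved between the times. Of 22 measured, 18 were lower at 72 h (81.8%, against 19.4% of all genes tested). The RNA comes from whole cultures, so fewer cells of a type and less RNA per cell cannot be told apart.

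Fewer and smaller changes were found on the third day than on the days before it. Of 9917 genes tested, 1732 (17.5%) were higher and 1921 (19.4%) lower at 72 h than at 48 h, or 36.8% in either direction (limma, Benjamini-Hochberg adjusted p under 0.05). The corresponding counts were 3885 higher (39.2%) and 3434 lower (34.6%) from 24 h to 48 h, and 2898 higher (29.2%) and 3750 lower (37.8%) from 0 h to 24 h. Most changes of the third day were small: 109 genes (1.10%) rose and 261 (2.63%) fell by 1.5-fold or more, and 16 (0.161%) rose and 84 (0.847%) fell by 2-fold or more. By 2-fold or more, 606 genes (6.11%) rose and 645 (6.50%) fell on the second day, and 268 (2.70%) rose and 255 (2.57%) fell on the first. The median size of a log2 change was 0.103 on the third day, against 0.315 on the second and 0.234 on the first. Arrays did not overlap between 48 h and 72 h for 829 genes (8.36%) that were higher and 1107 (11.2%) that were lower.

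The balance of rises and falls depended on how the arrays were scaled. With quantile normalization 47.4% of the genes called were higher at 72 h. When each array was instead scaled to its median, 802 were higher and 2062 lower, so that 28% of the calls were rises, and with the authors' processed values the counts were 985 and 1893, or 34.2% rises. The median log2 change of all genes was 0.0043, -0.04 and -0.02 under these 3 scalings. List counts given below under median scaling are to be read beside 802 higher and 2062 lower of 9917 genes. Without the replicate 4 arrays 1684 genes were higher and 1891 lower.

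**Figure D1:**
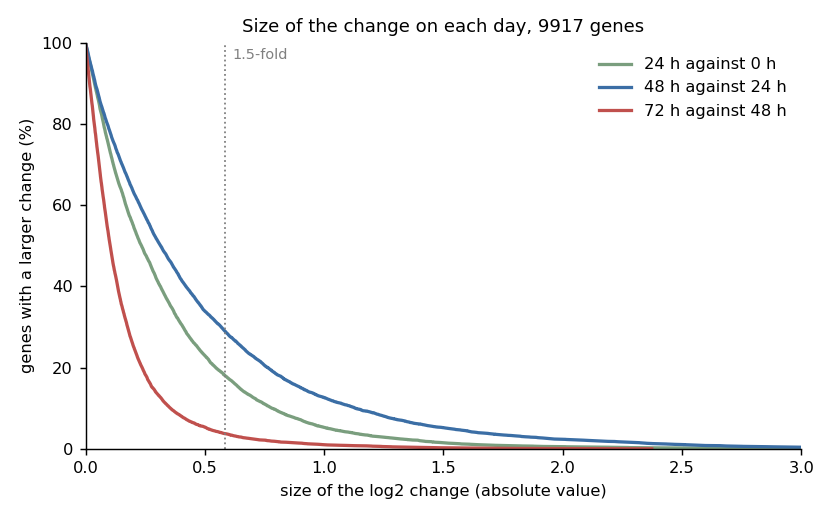
Share of the 9917 genes tested (vertical axis, percent) whose log2 change exceeded the size on the horizontal axis, with a line for each day. The line of 72 h against 48 h lies lowest, with a median change of 0.103 against 0.234 for the first day and 0.315 for the second.

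The largest rise was that of Cdkn1c, which encodes p57, an inhibitor of cyclin-dependent kinases. Its log2 signal ran from 12.23 to 12.42 at 48 h, with a median of 12.31, and from 14.52 to 14.66 at 72 h, with a median of 14.55. All 6 arrays at 72 h lay above all 6 at 48 h, and the rise was 4.81-fold (log2 change 2.27, SE 0.06, adjusted p = 1.17e-26). Cdkn1c had fallen on the first day, from 11.83 ± 0.14 (SD, n = 6) at 0 h to 10.49 ± 0.15 at 24 h. Mgll, the lipase that splits monoacylglycerols, followed the same course and went from 9.65 to 9.79 at 48 h to between 11.58 and 11.76 at 72 h, a 3.81-fold rise (adjusted p = 5.55e-28). Bex4, a gene of the brain-expressed X-linked family, rose 3.95-fold, from 7.74 to 8.01 at 48 h to between 9.73 and 10.06 at 72 h. No array of 24 h had detected it.

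The other leading rises were of 2.74-fold or less. Cd200, a surface protein that takes part in osteoclast formation in mice, rose 2.24-fold, and Sdc1, the heparan sulfate proteoglycan syndecan-1, 2.26-fold. Mmp12, the macrophage elastase, rose 2.30-fold, Htra1, a secreted serine protease, 2.57-fold, and Dcn, the matrix proteoglycan decorin, 2.29-fold. Cxcr1, a chemokine receptor, rose 2.32-fold. Stac2, an adaptor of calcium channels, rose 2.74-fold, and Dio2, which converts thyroxine to its active form, 2.57-fold. Dio2 had the widest spread of the leading rises, with 9.20 to 10.07 at 72 h against 8.10 to 8.52 at 48 h. Hba-a1, an alpha globin gene, was detected on all 6 arrays at 72 h but on no array at 48 h. Against the lowest detected signal of each array its rise was at least 2.13-fold (adjusted p = 1.58e-19), with measured means of 6.88 and 8.12, and it remained below its 0 h level of 8.69. For none of the 12 leading rises did the arrays of the times overlap, which was part of the rule that chose them.

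**Figure D2:**
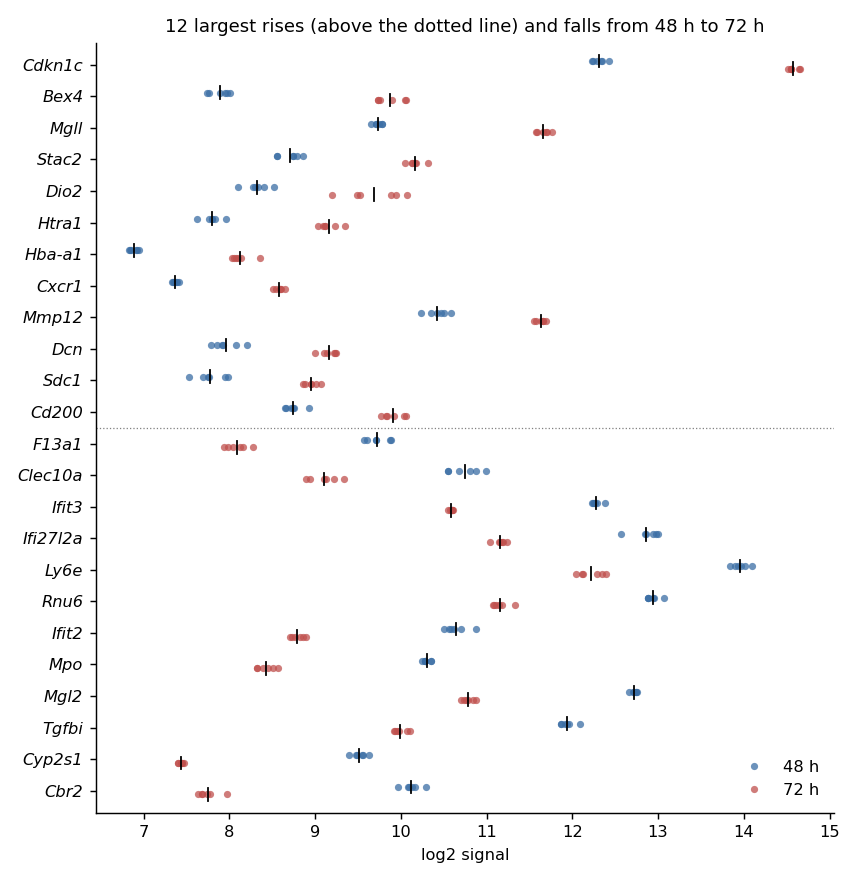
Log2 signal (horizontal axis) of the 12 genes with the largest rises and the 12 with the largest falls from 48 h to 72 h, 1 dot per array (blue 48 h, red 72 h) and a black line at the mean. Cdkn1c rose by 2.27 and Cbr2 fell by 2.37 on the log2 scale, and the dots of the times do not overlap for any of the 24 genes because the choice required it.

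The largest fall was that of Cbr2, a carbonyl reductase. It went from between 9.97 and 10.30 at 48 h to between 7.64 and 7.98 at 72 h, a 5.18-fold fall (log2 change -2.37, SE 0.06, adjusted p = 3.41e-28). Mgl2 and Clec10a encode galactose-binding lectins of macrophages. Mgl2 ran from 12.66 to 12.75 at 48 h and from 10.70 to 10.87 at 72 h, 3.83-fold lower, and Clec10a was 3.11-fold lower. For both, the level at 72 h was still above that at 24 h, which was 9.76 ± 0.05 for Mgl2 and 8.41 for Clec10a. Tgfbi, a secreted adhesion protein, fell 3.84-fold, from a median of 11.93 to 9.97. F13a1, the A chain of coagulation factor XIII and a gene of monocytes and macrophages, fell 3.11-fold, and Cyp2s1, a cytochrome P450, 4.22-fold. Mpo, the myeloperoxidase of neutrophil granules, fell 3.66-fold, from 10.25 to 10.36 at 48 h to between 8.32 and 8.57 at 72 h. Rnu6, the U6 spliceosomal RNA, fell 3.43-fold. The remaining 4 of the 12 leading falls, Ifit2, Ifit3, Ifi27l2a and Ly6e, are induced by interferon.

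Of the lists described, the interferon-induced genes had the highest share of falls on the third day. Of 42 measured, 40 were lower at 72 h and 0 were higher, which is 95.2% lower against 19.4% of all genes. Their median log2 change was -0.82 against 0.0043 for all genes tested. By 1.5-fold or more 31 of them fell, against 2.63% of all genes. In 37 of the 42 all arrays at 72 h lay below all arrays at 48 h, against 11.2% of all genes. The list holds genes whose products block viral RNA or its translation, guanylate-binding proteins, and the transcription factor Irf7.

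Ifit2, which binds viral RNA, measured 10.51 to 10.88 at 48 h (median 10.60) and 8.71 to 8.89 at 72 h (median 8.79), and fell 3.60-fold (adjusted p = 1.78e-22). Ifit3, its partner, measured 12.23 to 12.38 and 10.55 to 10.61, and fell 3.22-fold (adjusted p = 5.14e-25). The arrays of both genes were tight within a time and far apart between the times. Irf7, the factor that amplifies interferon production, fell 3.02-fold from a median of 10.39 to 8.82. Gbp3, a guanylate-binding protein, fell 2.65-fold, and Isg15, a ubiquitin-like modifier, 2.51-fold. Ly6e, a membrane protein that is not in this list, fell 3.34-fold from a median of 13.95 to 12.21. Ifi27l2a, a small mitochondrial protein, fell 3.26-fold, from a median of 12.90 to 11.17. Cxcl10, the chemokine that draws T cells, fell 2.41-fold from a median of 8.56 to 7.31. Its other kept probe, detected on no array of either time, fell by 0.27 on the log2 scale. The members that did not pass were Bst2 (10.61 to 11.53 at 48 h, 10.21 to 11.24 at 72 h, adjusted p = 0.108) and Ifi204 (log2 change -0.14, adjusted p = 0.131). Bst2 passed when replicate 4 of 48 h was left out (-0.37), when replicate 2 of 72 h was left out (-0.39), and under median scaling (-0.37), 75th percentile scaling (-0.33) and the authors' processed values (-0.35).

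The same genes had moved the other way on the first day, in arrays that the third-day comparison does not use. At 24 h 41 of the 42 were higher and 1 lower than at 0 h, against 29.2% and 37.8% of all genes. On the second day 10 of them rose and 26 fell, against 39.2% and 34.6% of all genes. At 72 h 33 were still above 0 h and 3 below it, a comparison not counted over all genes. Ifit3 measured 9.31 ± 0.09 (SD, n = 6) before RANKL and was highest at 24 h with 12.56 ± 0.12, followed by 12.28 ± 0.06 on the next day and 10.59 ± 0.02 on the last. Isg15 returned further, to 8.54 ± 0.11 at 72 h against 8.13 ± 0.02 at 0 h. Ifi27l2a was the member that did not rise on the first day (11.74 at 0 h, 11.56 at 24 h), and at 72 h it lay at 11.16. Neutrophil genes fell over the same 24 h, and their part in this result was not tested.

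**Figure D3:**
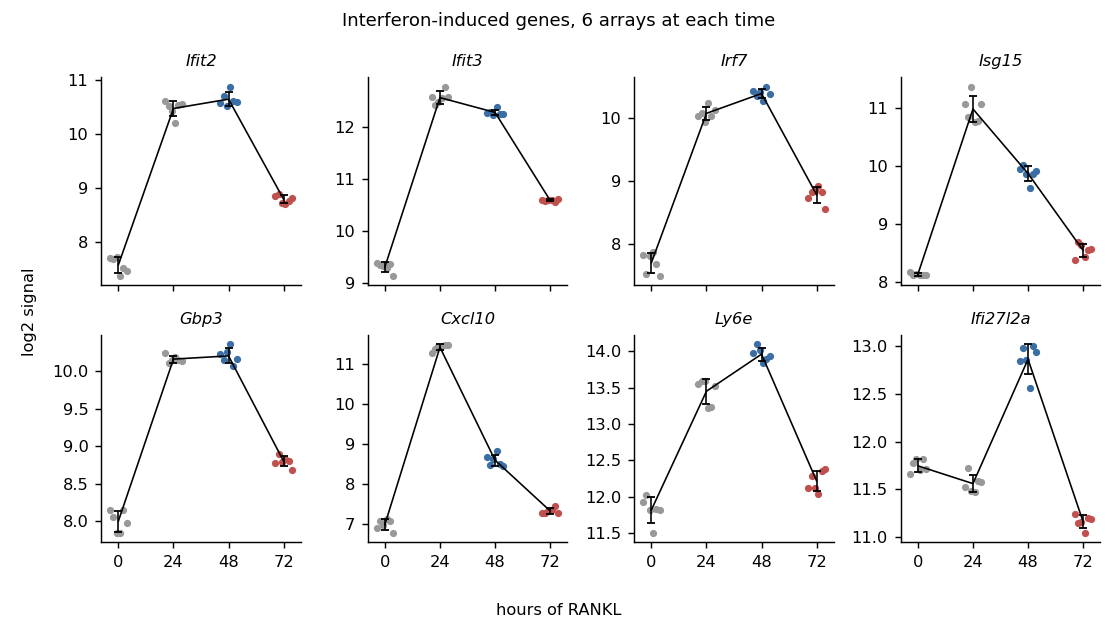
Log2 signal (vertical axis, a scale for each gene) of 8 interferon-induced genes at 0, 24, 48 and 72 h of RANKL, with 1 dot per array, the mean and SD of 6 arrays in black, 48 h in blue and 72 h in red. All 8 fell from 48 h to 72 h, and at 72 h Ifit3 (10.59) remained above its level before RANKL (9.31). Ly6e is not a member of the list of 42 genes.

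The promoters of these genes were read for the interferon-stimulated response element, the letters GAAA, then 2 bases of any kind, then GAAA, on either strand, in RefSeq windows from 250 bases before to 50 bases after a start (GRCm38.p6). Of 42 measured members, 32 had a window, and the motif stood in 19 of them (59.4%). Of the 8075 tested genes with a window, 3.9% held it. By window the share was 20 of 38, or 52.6%, against 1131 of 32851 windows, or 3.44%, over all promoters. Matches of different motifs can share letters, and a match is a description of these letters and not of a bound site. Stretches of 120 bases are shown for the 3 largest falls whose window holds the motif, 5′ to 3′ in the direction of the gene. Holding the motif was a condition of this choice, so the stretches do not show how common it is. Capitals mark the motif on either strand.
Ifit3 (chr19:34583313-34583432, + strand): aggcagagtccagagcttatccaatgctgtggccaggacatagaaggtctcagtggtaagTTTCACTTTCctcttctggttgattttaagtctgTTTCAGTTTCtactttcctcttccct
Gbp3 (chr3:142559939-142560058, + strand): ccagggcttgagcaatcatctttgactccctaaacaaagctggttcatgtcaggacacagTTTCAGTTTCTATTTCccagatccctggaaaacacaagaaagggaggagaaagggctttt
Isg15 (chr4:156200837-156200956, - strand): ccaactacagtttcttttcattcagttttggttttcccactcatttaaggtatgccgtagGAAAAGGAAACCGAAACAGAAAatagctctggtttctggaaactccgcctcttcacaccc
The window of Isg15 holds 3 matches that run into each other, and those of Ifit3 and Gbp3 hold 2 each.

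Genes of mitosis went on falling on the third day. Of 37 measured, 29 (78.4%) were lower and 1 was higher at 72 h, against 19.4% and 17.5% of all genes. The median log2 change was -0.515. By 1.5-fold or more 17 fell, against 2.63% of all genes. Birc5, which encodes survivin of the chromosomal passenger complex, measured 9.09 to 9.24 at 48 h and 7.55 to 7.83 at 72 h, 2.92-fold lower (adjusted p = 1.56e-22). Plk1, the kinase that drives entry into mitosis, measured 8.54 to 8.72 and then 7.06 to 7.28, 2.71-fold lower. The arrays did not overlap for either gene. Anln, an actin-binding protein of the cleavage furrow, was 2.72-fold lower, while its other kept probe, detected on no array of either time, changed by 0.0037 on the log2 scale. Kif2c, a kinesin that takes microtubules apart, was detected on all 6 arrays at 48 h and on none at 72 h, so that its fall was at least 2.34-fold, with measured means of 8.27 and 6.84. Pttg1, the securin that guards sister chromatids, was the member that rose, by 0.21 on the log2 scale, and was detected on 1 of 6 arrays at 48 h and 4 of 6 at 72 h. Bub3, a checkpoint protein, did not pass (8.67 ± 0.10 at 48 h and 8.61 ± 0.09 at 72 h).

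Some of these genes were no longer above background. At 48 h 4 of the 37 were detected on no array, and at 72 h 9 were. The median was -0.421 when the genes below background at a time were set at their bound. On the first day 35 of the 37 had been higher and 1 lower, against 29.2% and 37.8% of all genes. On the second day all 37 fell, against 34.6% of all genes. The level of Birc5 was 12.38 ± 0.11 after the first day, 9.17 ± 0.07 after the second and 7.62 ± 0.10 after the third. Genes of DNA replication changed less: of 43 measured, 19 (44.2%) were lower and 3 higher, against 19.4% and 17.5% of all genes. Their median was -0.102. The largest falls were those of Tk1, the thymidine kinase of S phase (2.41-fold, from a median of 8.52 to 7.28), Uhrf1, which keeps DNA methylation after replication (1.94-fold), and Mcm10, a factor of origin firing (1.71-fold). Further kept probes of Tk1 and Mcm10 changed less, by -0.27 for Tk1 and by 0.06 and -0.40 for Mcm10. Rpa2, a subunit of the protein that coats single-stranded DNA, was higher by 0.34, but its further probes, detected on at most 1 array of either time, gave 0.04 and 0.05 and did not pass. Neutrophil genes, some of which are granule genes made by dividing marrow precursors, were also lower at 72 h than at 48 h, with a summed signal of 16300 to 17400 against 28800 to 30300, and the part of such cells in this result was not tested.

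The cell cycle genes homology region, the letters TTTGAA on either strand, stood in 26 of the 32 measured mitosis genes with a window (81.2%). Of the 8075 tested genes with a window, 14.5% held it. By window the share was 30 of 36, or 83.3%, against 17.9% of all 32851 windows. The E2F letters TTTCCCGC or TTTGGCGC stood in 9 of the 36 DNA replication genes with a window, or 20.9% of their windows against 1.56% of all. By gene the share was 25%, and for mitosis genes 1 of 32 (3.1%), against 3.38% of tested genes. The stretches of the 3 largest falls whose window holds the homology region are shown. Holding it was a condition of this choice, so they do not show how common it is. The letters TTTGAA on either strand are in capitals (GRCm38.p6, 5′ to 3′ in the direction of the gene).
Anln (chr9:22389157-22389276, - strand): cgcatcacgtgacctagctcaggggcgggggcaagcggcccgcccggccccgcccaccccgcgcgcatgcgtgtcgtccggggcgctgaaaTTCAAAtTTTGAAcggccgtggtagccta
Plk1 (chr7:122159365-122159484, + strand): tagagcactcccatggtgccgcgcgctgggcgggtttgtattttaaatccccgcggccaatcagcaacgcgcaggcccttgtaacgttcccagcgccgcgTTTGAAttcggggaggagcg
Kif2c (chr4:117178816-117178935, - strand): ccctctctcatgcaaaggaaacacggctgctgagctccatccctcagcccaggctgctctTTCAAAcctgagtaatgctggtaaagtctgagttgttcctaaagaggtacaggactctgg
In Anln and Plk1 the capitals lie 21 and 30 bases after the start, and in Kif2c they lie 103 bases before it.

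Osteoclast genes of bone resorption fell more often than they rose. Of 18 measured, 0 were higher and 11 (61.1%) lower at 72 h, against 17.5% and 19.4% of all genes. Their median log2 change was -0.21, and 15 of the 18 were still above their 0 h levels. The share of all genes above 0 h at 72 h was not counted. Ctsk, the collagen-degrading protease cathepsin K, measured 14.38 to 14.61 at 48 h and 14.22 to 14.47 at 72 h, 1.15-fold lower (log2 change -0.20, adjusted p = 0.000899), and the arrays overlapped. Mmp9, a gelatinase, measured 13.29 to 13.54 and then 12.79 to 12.94, 1.43-fold lower with no overlap. Acp5, the tartrate-resistant acid phosphatase TRAP, measured 8.64 to 9.14 and then 8.05 to 8.62, 1.52-fold lower. Its arrays did not overlap, although the highest at 72 h and the lowest at 48 h lay close together. Car2, the carbonic anhydrase that supplies protons, fell 1.53-fold, and Rab38, a small GTPase of lysosome-related organelles, 1.82-fold. Tcirg1, the osteoclast a3 subunit of the proton pump, did not pass (14.04 ± 0.02 and 14.01 ± 0.09). With the methods' t-test and Bonferroni adjustment 5 of the 18 were lower, and Ctsk, Acp5 and Nfatc1 were not among the genes that passed.

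Transcription factors of the lineage were higher in 4 of 21 and lower in 5, shares near those of all genes (17.5% and 19.4%), and under median scaling 2 were higher and 5 lower. Fosl2, an AP-1 subunit, fell 2.12-fold, from 10.75 to 10.93 at 48 h to between 9.61 and 9.90 at 72 h. Fos, its relative, rose 1.51-fold, from 9.12 to 9.49 at 48 h to between 9.77 and 10.05, after a fall from 12.19 at 24 h. Nfatc1 was 1.15-fold lower (10.74 ± 0.12 and 10.54 ± 0.08, adjusted p = 0.0077). Of its 3 further kept probes, those that passed gave -0.29 and -0.87 on the log2 scale, and the other gave -0.10 and did not pass. Mycl, a Myc relative induced by RANKL, fell 1.61-fold and was detected on 2 of 6 arrays at 72 h, and Pparg, a nuclear receptor, rose 1.25-fold. Of 12 measured repressors of osteoclast differentiation, 5 rose and 2 fell, or 2 and 2 under median scaling. Those that rose included Irf5 (1.25-fold) and Bcl6 (1.22-fold), and those that fell were Nfkbia, the inhibitor of NF-κB (1.27-fold, with a further probe at -0.18 that did not pass), and Maf (1.25-fold).

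Fusion genes split evenly, with 7 of 21 (33.3%) higher and 7 lower, or 4 and 7 under median scaling. The shares of all genes were 17.5% higher and 19.4% lower. Cd200 (2.24-fold) and the tetraspanin Cd9 (1.55-fold, from a median of 13.40 to 14.02) rose, while Dcstamp, the receptor-like protein needed for fusion, fell 1.42-fold from a median of 8.92 to 8.42, and the tetraspanin Cd81 fell 1.33-fold. For subunits of the vacuolar proton pump most members did not pass, with 3 of 16 (18.8%) higher and 2 (12.5%) lower. Atp6v0a1 rose 1.30-fold (a further probe by 0.68 on the log2 scale) and Atp6v1d fell 1.17-fold. Of 35 lysosomal cathepsins and hydrolases, 8 rose and 7 fell (5 and 6 under median scaling), which is near the shares of all genes. Ctsl and Ctss, both cathepsins, rose 1.42-fold and 1.34-fold, Galns, a sulfatase, 1.45-fold, and Ctsc, the cathepsin that activates granule proteases, fell 1.30-fold.

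Genes of podosomes and actin, which form the sealing ring of the osteoclast, were lower in 13 of 39 (33.3%) and higher in 6 (15.4%). The shares of all genes were 19.4% lower and 17.5% higher. Zyx, the adhesion protein zyxin, fell 1.65-fold and Cfl1, which severs actin filaments, 1.41-fold. Actb, beta actin, measured 14.20 to 14.38 at 48 h and 13.63 to 13.86 at 72 h, 1.42-fold lower. A further kept probe of Actb gave -0.48 on the log2 scale and passed, and another gave 0.78 and did not pass. The mean over the kept probes of Actb changed by -0.07 and did not pass. Itgb2, the beta chain of the leukocyte integrins, rose 1.69-fold. Myo1e, a myosin, rose 1.35-fold with the probe that represents it, and a further probe gave -0.02. Scin, the actin-severing protein scinderin, is not in this list and fell 2.13-fold after a rise from 6.99 to 10.34 on the first day. Of 10 measured genes for factors through which osteoclasts act on bone-forming cells, 3 (30%) rose and 2 (20%) fell. Under median scaling 2 rose and 3 fell. Sema4d rose 1.36-fold and Ccl9, a chemokine, fell 1.51-fold.

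**Figure D4:**
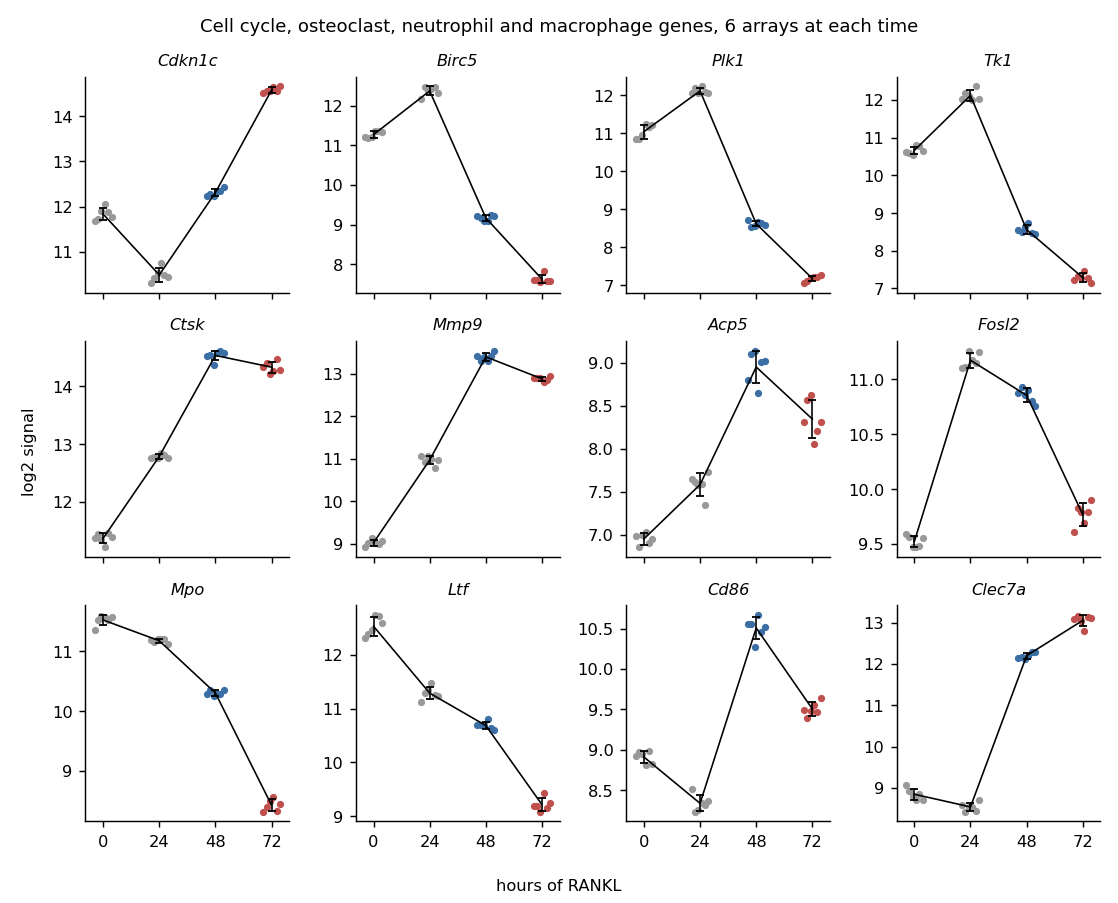
Log2 signal (vertical axis, a scale for each gene) of 12 cell cycle, osteoclast, neutrophil and macrophage genes at 0, 24, 48 and 72 h of RANKL, with 1 dot per array, the mean and SD of 6 arrays in black, 48 h in blue and 72 h in red. Cdkn1c (14.58) and Clec7a (13.05) were highest at 72 h, Birc5 (7.62) and Mpo (8.43) lowest, and Ctsk, Mmp9 and Acp5 fell from 48 h.

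Macrophage surface genes fell more often than they rose. Of 36 measured, 17 (47.2%) were lower and 9 (25%) higher at 72 h, against 19.4% and 17.5% of all genes. Median scaling gave 17 lower and 5 higher. Cd86, a costimulatory ligand for T cells, measured 10.27 to 10.67 at 48 h and 9.39 to 9.65 at 72 h, 2.00-fold lower. Marco, a scavenger receptor, fell 2.07-fold, from a median of 8.63 to 7.52, and Siglec1, the sialic acid receptor of macrophages, by 0.58 on the log2 scale. Clec7a, the beta-glucan receptor dectin-1, rose 1.81-fold, from 12.12 to 12.29 at 48 h to between 12.79 and 13.16 at 72 h. The scavenger receptor Msr1 rose 1.39-fold and Mertk, a receptor for the uptake of dying cells, 1.25-fold. Csf1r, the receptor of M-CSF, was 13.05 ± 0.04 at 48 h and 12.94 ± 0.05 at 72 h and did not pass (adjusted p = 0.0535). It passed without replicate 4 of 48 h (-0.13) and without replicate 1 of 72 h (-0.13), and also with array weights (-0.12) or with only the 12 arrays in the fit (-0.12), while its other kept probe gave 0.10.

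Of 8 measured MHC class II genes, 4 (50%) fell and 0 rose, against 19.4% and 17.5% of all genes. Ciita, their transcriptional activator, fell 1.55-fold, from 8.46 to 8.61 at 48 h to between 7.78 and 7.99 at 72 h. Cd74, the invariant chain, was 1.20-fold lower, and H2-DMa, which loads peptides, 1.29-fold lower. A further Cd74 probe gave 0.10 and did not pass. All 8 genes were higher at 72 h than at 0 h, a comparison not counted over all genes.

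Among 16 chemokines 10 (62.5%) were lower and 2 (12.5%) higher, against 19.4% and 17.5% of all genes. Beside Cxcl10, the falls were led by Pf4 (1.92-fold), a platelet chemokine, and Ccl8 (1.56-fold), a monocyte attractant. Those higher were Cxcl16, a membrane-bound chemokine (1.21-fold), and Cxcl14, which was detected on no array of either time and lost its call without replicate 1, 2 or 5 of 48 h (0.11 to 0.14) and without replicate 3, 4 or 6 of 72 h (0.11 to 0.13). Ccl3, a macrophage inflammatory chemokine, did not pass (12.70 ± 0.08 and 12.63 ± 0.08). Their receptors and those of cytokines went the other way more often, with 10 of 23 higher (43.5%) and 4 lower (17.4%). Ccrl2, an atypical chemokine receptor, rose 1.97-fold, from a median of 9.94 to 10.90, Csf2rb2, a receptor chain for interleukin 3, 1.57-fold, and Tnfrsf1b, a receptor of tumour necrosis factor, 1.42-fold. Il6ra fell 1.55-fold and Il1rn, the interleukin 1 receptor antagonist, 1.46-fold. Under median scaling 6 of the 23 were higher and 4 lower.

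Genes that mark other cells of the marrow changed between the same arrays. Of 22 measured neutrophil genes, 18 (81.8%) were lower and 1 was higher, against 19.4% and 17.5% of all genes. Their median log2 change was -0.936, or -0.821 with genes below background set at their bound. Their summed signal was 28800 to 30300 at 48 h and 16300 to 17400 at 72 h. Ltf, the granule protein lactoferrin, measured 10.60 to 10.81 and then 9.09 to 9.44, 2.77-fold lower. Its other probe, detected on no array of either time, gave -0.31. Ctsg, cathepsin G of granules, fell 2.92-fold, and Lcn2, an iron-binding granule protein, 2.14-fold. At 48 h 3 of the 22 were detected on no array, and at 72 h 7 were. The gene that rose, Anxa1 (1.60-fold), encodes annexin A1 and is made by macrophages as well. Whether macrophages also made members of these marker lists that fell was not tested.

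Of 8 measured eosinophil, basophil and mast cell genes, 5 (62.5%) were lower and 0 higher, against 19.4% and 17.5% of all genes. Their summed signal was 2300 to 2490 at 48 h and 1570 to 1670 at 72 h. Prg2, an eosinophil granule protein, fell 1.84-fold and Kit, the stem cell factor receptor, 1.73-fold. Of 7 erythroid and megakaryocyte genes, 5 were lower, led by Pf4 and Ppbp (1.54-fold), and Hba-a1 was higher. The summed signal of this list was 3680 to 4360 at 48 h and 2590 to 3110 at 72 h. Stromal genes were higher in 4 of 9 and lower in 0, led by Dcn and by Bgn (1.54-fold), with summed signals of 4010 to 4360 and 5040 to 5380. Dendritic cell genes were higher in 4 of 7 and lower in 0, led by Cd83 (1.52-fold), with summed signals of 3450 to 4800 and 3730 to 5190. Median scaling put 2 of these 7 lower. For B cells 1 of 6 was higher and 1 lower, with summed signals of 950 to 1020 and 985 to 1080. For T and NK cells 2 of 5 were higher and 1 lower, with summed signals of 7090 to 8070 and 9290 to 10200. The part of these cells in the falls and rises of other genes was not tested.

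Genes of energy metabolism mostly differed little. Glycolysis genes were higher in 4 of 19 and lower in 3, shares near those of all genes (17.5% and 19.4%). Eno2, an enolase, rose 1.64-fold, from a median of 9.65 to 10.35, Hk3, a hexokinase of leukocytes, 1.42-fold, and Slc2a1, a glucose transporter, 1.34-fold. Aldoc, an aldolase, fell 1.88-fold, and Gapdh 1.13-fold. Pfkl, the liver phosphofructokinase, did not pass (10.66 ± 0.10 and 10.74 ± 0.07). Of 24 citric acid cycle genes, 10 (41.7%) fell and 0 rose, each by less than 1.5-fold. Sdhc, a subunit of succinate dehydrogenase, fell 1.26-fold, and Fh1, fumarase, 1.27-fold, with a further probe at -0.13 that did not pass. Of 63 respiratory chain genes, 16 (25.4%) fell and 2 rose, against 19.4% and 17.5% of all genes. Ndufs8, a subunit of complex I, led with a 1.38-fold fall, and the 2 rises were lost under median scaling, 75th percentile scaling and the authors' processed values.

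The hexosamine pathway makes the sugar donor for O-GlcNAc, a modification of nuclear and cytosolic proteins. Of 12 measured genes of the pathway, 3 (25%) fell and 1 rose, against 19.4% and 17.5% of all genes. Gfpt1, which commits glucose to it, had a median of 11.36 at 48 h and 10.87 at 72 h with no overlap of the arrays, 1.42-fold lower (adjusted p = 2.45e-09). Its further probes, detected on 1 to 5 arrays of a time, gave 0.10 and -0.06 and did not pass. Uap1, which makes the sugar donor, fell 1.15-fold, and Gnpda1, which takes the pathway back to fructose phosphate, 1.16-fold. Further kept probes of Gnpda1 gave 0.06 and 0.07 on the log2 scale and did not pass. Nans, of the neighbouring sialic acid pathway, rose by 0.16 on the log2 scale (adjusted p = 0.0367). It lost the call under the other scalings, without replicate 3, 4, 5 or 6 of 48 h (0.14 to 0.16), and without replicate 5 or 6 of 72 h (0.14 and 0.13). Nagk, the kinase that salvages N-acetylglucosamine, did not pass with the probe that represents it (12.73 ± 0.08 and 12.70 ± 0.05). Of the 3 further Nagk probes, 1 rose by 0.16 on the log2 scale and passed, and the others gave 0.12 and 0.04 and did not pass. Oga, which removes O-GlcNAc, did not pass (7.62 ± 0.14 and 7.65 ± 0.11). Ogt, which attaches it, did not pass with its brightest probe (10.60 ± 0.10 and 10.63 ± 0.10, adjusted p = 0.782), whereas all 3 of its further kept probes rose and passed, by 0.30, 0.43 and 0.19 on the log2 scale.

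Lipid genes went both ways. Of 29 genes of sterol and fatty acid synthesis, 10 (34.5%) fell and 2 rose, against 19.4% and 17.5% of all genes. The 2 rises were lost under median scaling and the authors' processed values. Scd1, the desaturase that makes oleate, measured 9.10 to 9.44 at 48 h and 7.96 to 8.11 at 72 h, 2.33-fold lower (adjusted p = 1.21e-19). Among 9 genes of the liver X receptor and cholesterol efflux, 4 rose and 3 fell. Nr1h3, which encodes the receptor, rose 1.84-fold, from a median of 11.60 to 12.49, and Apoe, which carries cholesterol out of macrophages, 1.31-fold. Lpl, a lipase, rose 1.17-fold, and a further probe of it by 0.55 on the log2 scale. Apoc2, the cofactor of Lpl, fell 1.33-fold, with a further probe at 0.02.

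Antioxidant genes of the NRF2 pathway rose more often than they fell, with 11 of 29 higher (37.9%) and 2 lower. Among all genes 17.5% were higher and 19.4% lower. Gstm1, a glutathione transferase, measured 12.13 to 12.39 at 48 h and 13.07 to 13.28 at 72 h, 1.86-fold higher. Slc7a11, the cystine importer, rose 1.83-fold, from a median of 8.14 to 9.01. Further probes of Gstm1 and Slc7a11 rose by less, 0.29 and 0.43 on the log2 scale. Txn1, thioredoxin, was 1.53-fold higher with overlapping arrays (medians of 9.62 and 10.30), and its further probe gave 0.07 and did not pass. The targets of ATF4, the factor of amino acid shortage, leaned the other way: 16 of 31 (51.6%) fell and 4 rose, Slc7a11 among the latter. Chac1, which breaks down glutathione, fell 1.56-fold, Psat1 of serine synthesis 1.49-fold, and Aldh18a1 of proline synthesis 1.39-fold.

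Survival genes of the BCL2 family were higher in 7 of 21 (33.3%) and lower in 3 (14.3%), while median scaling gave 3 and 5. The shares of all genes were 17.5% higher and 19.4% lower. Bcl2a1d and Bcl2a1b, near-identical copies of an antiapoptotic gene whose probes may not tell them apart, were 1.58-fold and 1.61-fold higher. Of 15 iron genes, 5 rose and 5 fell, or 2 and 5 under median scaling. Trf, transferrin, rose 1.78-fold, from a median of 12.05 to 12.91, while Lcn2 and Cp, the ferroxidase ceruloplasmin (1.56-fold), fell. The metallothionein Mt1 was 1.36-fold lower. Matrix and adhesion genes were higher in 9 of 22 and lower in 8. Beside Mmp12 the urokinase receptor Plaur rose 1.76-fold, and beside Tgfbi the matrix protein Thbs1 fell 1.43-fold.

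In the other lists most genes did not pass. Of all genes tested, 17.5% were higher and 19.4% lower. Autophagy genes were higher in 4 of 22 and lower in 5 (2 and 6 under median scaling), with Gabarapl1 1.46-fold higher. Chaperones of the endoplasmic reticulum were higher in 4 of 21 and lower in 3 (2 and 3 under median scaling), with Herpud1 1.34-fold lower. Hypoxia response genes were higher in 6 of 17 and lower in 2. For zinc and metallothionein genes the counts were 2 and 2 of 8, or 1 and 2 under median scaling. Cytosolic ribosomal protein genes were higher in 6 of 50 and lower in 4, or 2 and 2 under median scaling, and ribosome biogenesis genes higher in 11 of 37 and lower in 3, or 3 and 2 under median scaling. Proteasome genes were lower in 8 of 36 and higher in 2, or 6 and 0 under median scaling, and the largest falls were those of Psmb9, Psme1 and Psmb10, subunits of the immunoproteasome and its activator that interferon induces (1.33-fold, 1.26-fold and 1.25-fold).

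**Figure D5:**
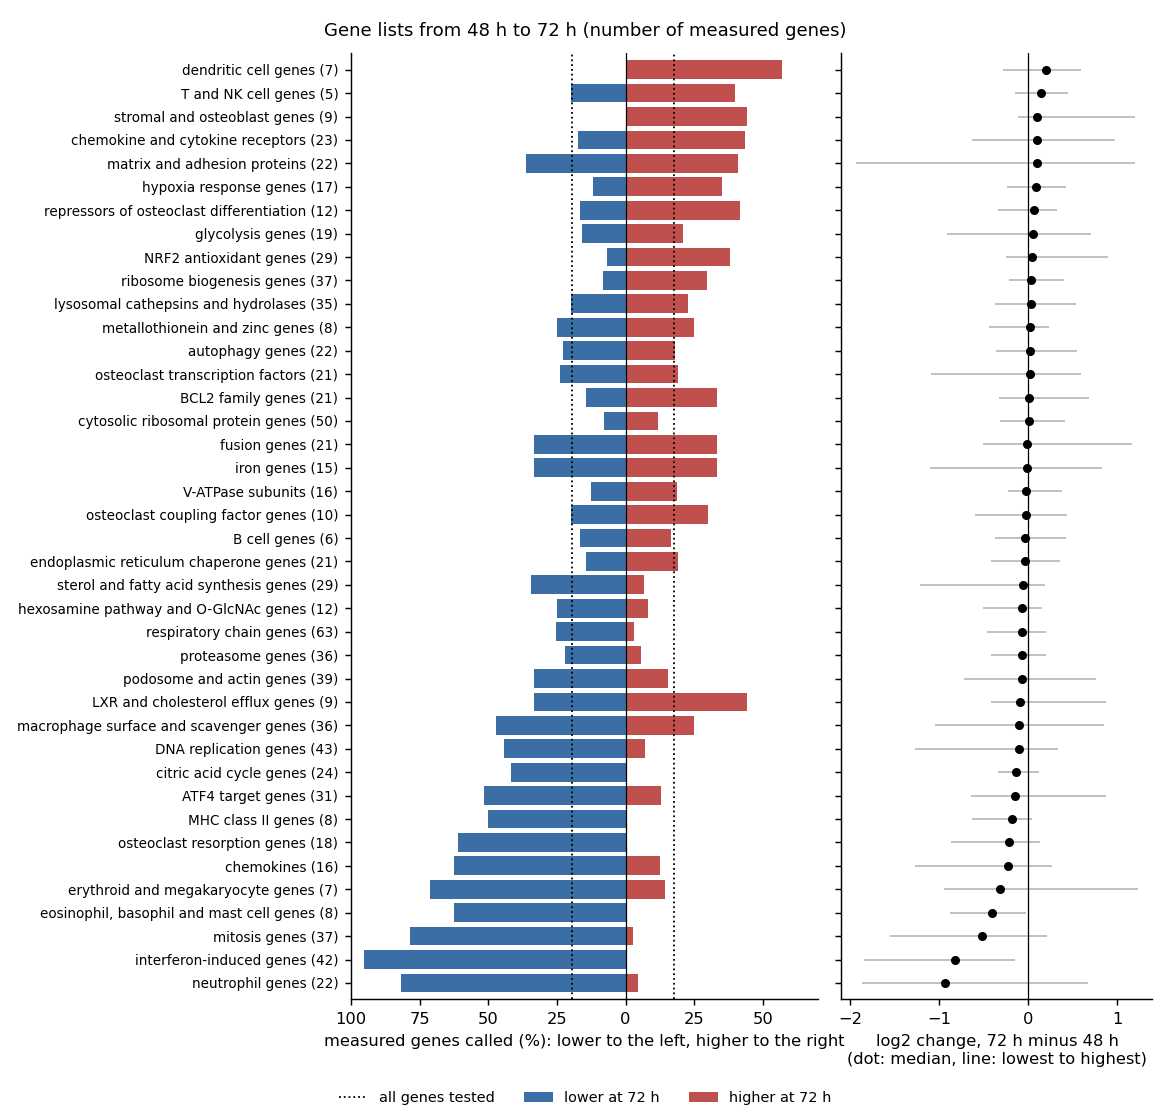
Left, percent of the measured genes of each list that were lower (blue) or higher (red) at 72 h than at 48 h, with dotted lines at the shares of all genes tested (19.4% and 17.5%). Right, the median log2 change of the list (dot) and its lowest and highest member (line), where interferon-induced (-0.82), mitosis (-0.515) and neutrophil genes (-0.936) lie farthest to the left.

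The change of the third day differed from that of the first, by a test of the difference itself, for 6026 genes (60.8%), with 3354 (33.8%) above it and 2672 (26.9%) below. The comparison with the second day, which shares the 48 h arrays, gave 6055 genes (61.1%). Genes that moved by 1.5-fold or more on the third day had often moved against that direction on the first. Of the 109 that rose, 14 had been higher and 75 (68.8%) lower at 24 h than at 0 h. Of the 261 that fell, 147 (56.3%) had been higher and 87 lower. Among all genes tested 29.2% were higher and 37.8% lower on the first day.

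Among the genes called on the third day, the differences from the first day were largest for Cxcl10, Mycl, Ifit3, Ifit2 and Scin below it. Cxcl10 rose by 4.44 on the log2 scale on the first day and fell by 1.27 on the third, a difference of -5.71 (adjusted p = 3.3e-34). For Mycl these values were 4.54 and -0.69, and for Scin 3.35 and -1.09. Above the first day, the largest differences were those of Cdkn1c, Mgll, Hba-a1, Spsb4 and Stac2. Cdkn1c fell by 1.35 on the first day and rose by 2.27 on the third, a difference of 3.61 (adjusted p = 7.95e-29). Spsb4, an adaptor of a ubiquitin ligase, fell from 10.28 ± 0.17 to 7.95 ± 0.05 over the first day, and measured 9.24 ± 0.05 after the second and 9.61 ± 0.13 after the third. Unlike Cdkn1c, Mgll and Stac2, both Spsb4 and Hba-a1 were lower at 72 h than at 0 h.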

How the data were processed

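RNA of BMMs was hybridised to Illumina mouse bead arrays, 6 for each of 0, 24, 48 and 72 h of RANKL. The intensity deposited by the authors is the mean bead signal of each of 45281 probes on each array, extracted with Illumina GenomeStudio and not normalized between arrays. The detection p-value of each probe on each array was deposited by the authors beside it. A further table deposited by the authors holds log2 values that rank each array's probes as the signals do, with array medians of 1.90 to 1.99. Its centring was not stated and its arrays were not quantile normalized, so it was used only as an alternative. The genome build is not given in the sources used here. Every measurement column was matched to a sample, leaving 0 without one.

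Signals were log2 transformed and quantile normalized over the 24 arrays. A probe was kept where 3 or more of the 6 arrays of some time detected it, with detection p under 0.05 (18346 probes, of which 2788 had no symbol and 15558 had 1). Of all probes 34885 had 1 symbol in the platform annotation, 18 had several and 10378 had none. By Entrez ID 34807 were found in RefSeq, and 0 symbols changed. The brightest kept probe by mean signal represented a gene, which left 9917 genes, 3834 of them with more than 1 kept probe. A linear model over the 4 times (limma 3.58.1 in R 4.3.3, eBayes with trend, 20 residual degrees of freedom) gave log2 changes, standard errors and p-values adjusted by Benjamini-Hochberg over all genes tested. Every adjusted p in the text is from limma. The scripts were tested on simulated data. Figures were drawn with matplotlib 3.10.9.

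A gene detected on no array of a time has only a bound there. Its fold is given as "at least", with the mean of the bright time set against a floor for the dim time. The floor of an array was the lowest signal that it detected for any probe, or the signal of the probe in question where that was higher, and floors were averaged over arrays. A list's median with bounds uses these values, and 0 where neither time detected the gene. Summed signals of a list are sums of the normalized linear signals of its measured members. Promoter sequences are those of RefSeq for GRCm38.p6, matched by symbol.

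Members and lists were chosen with earlier results of these data known. Named genes were the 12 largest rises and 12 largest falls with no overlap of the arrays, up to 3 rises, 3 falls and 1 unpassed gene of each list, 11 osteoclast and hexosamine genes, and up to 5 genes in each direction for the difference from the first day. Unnamed clones were left out. Irf7, Gbp3, Isg15, Ifi204 and Kif2c lie outside this rule and were named after their values were seen. Alternatives were normexp background correction, the authors' values, scaling to the median or the 75th percentile, no detection filter or a strict filter (all 12 arrays), the mean of the kept probes or the second-brightest probe, no trend, a fit of 12 arrays with and without their own normalization, weighted arrays, a block for the replicate number, the methods' t-test, and each array left out in turn. Leaving out the number 4 arrays at all times was added after seeing the data.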

Additional observations from a re-analysis of the deposited data

Results flagged for a closer look

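In each group of 6 arrays of the genes named, the farthest array was compared with the next by its gap over the group's range, against Dixon's 95% critical value. Of 282 groups 19 exceeded it, and chance alone gives about 1 in 20, or 14.1. The array that stood apart was replicate 4 in 12 of the 19.

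At 48 h replicate 4 was high for Cd200 (log2 signal 8.93, others 8.65 to 8.75), Bcl6 (10.86, others 10.52 to 10.63), Nfkbia (11.47, others 11.18 to 11.27) and Cfl1 (9.55, others 9.15 to 9.28). It was low for the interferon-induced Ifi27l2a (12.56, others from 12.84 up) and Isg15 (9.62, others 9.86 to 10.01) and for Psmb9 (11.20, others 11.34 to 11.41). At 72 h replicate 4 was high for Hba-a1 (8.36, others 8.03 to 8.14) and Birc5 (7.83, others 7.55 to 7.60). It was low for Ctss (11.70, others 11.93 to 12.04), Clec7a (12.79, others 13.04 to 13.16) and Cp (7.74, others 8.01 to 8.17). Other arrays stood apart for 7 groups. At 48 h these were Rnu6 in replicate 6 (13.07, others 12.88 to 12.95), Ctsk in replicate 3 (14.38, others 14.53 to 14.61), Csf2rb2 in replicate 6 (9.67, others 9.83 to 9.91), Gnpda1 in replicate 3 (12.56, others 12.74 to 12.83) and Ndufs8 in replicate 1 (12.26, others 12.05 to 12.12). At 72 h they were Il6ra in replicate 6 (9.24, others 9.73 to 9.87) and Slc7a11 in replicate 5 (9.16, others 8.98 to 9.04). None of these 19 genes lost its call when its own array was left out.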

How the results depend on the processing

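Of the 141 genes named with values, 131 were called, and 89 had the same call and direction under all 28 alternatives. The count of genes higher at 72 h was 985 with the authors' values, 802 with median scaling and 219 with the methods' t-test and Bonferroni adjustment, which called 413 lower and 5 resorption genes lower. The t-test gave 2031 higher and 2160 lower unadjusted and 1538 and 1763 after Benjamini-Hochberg adjustment, and with Bonferroni 41 of the named genes lost their call. By 1.5-fold or more, normexp gave 182 higher and 455 lower. The strict filter left 16 mitosis and 11 neutrophil genes lower, where only 20 of 37 and 13 of 22 members were still tested. For the other differences the cause was not tested.

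The log2 change took the opposite sign with the second-brightest probe for Anln (0.0037), Tcirg1 (0.072), Csf1r (0.10), Nagk (0.12), Gnpda1 (0.070), Pfkl (-0.073), Apoc2 (0.023) and Myo1e (-0.020). With the mean of the kept probes it did so for Tcirg1 (0.034) and Nagk (0.073), and with 75th percentile scaling for Tcirg1 (0.013) and Ogt (-0.016). Ogt was at -0.033 with the authors' values and at -0.052 with median scaling, where Oga was at -0.0056.

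With 1 array left out at a time, 1590 to 1729 genes were higher and 1821 to 1930 lower, 103 to 112 and 253 to 273 by 1.5-fold or more. The third day differed from the first for 5889 to 6015 genes and from the second for 5808 to 6055. Lower were 38 to 41 interferon-induced, 28 to 30 mitosis, 18 neutrophil and 11 resorption genes. Ogt ran from -0.0087 to 0.051 and Oga from -0.0087 to 0.063. Without the number 4 arrays at all times, 1684 genes were higher and 1891 lower, and these 4 lists had 39, 29, 18 and 11 lower.

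With the replicate number as a block, 1966 genes were higher and 2125 lower, 109 and 261 by 1.5-fold or more, with 40, 31, 18 and 11 lower in the lists. The third day then differed from the first for 6320 genes and from the second for 6347. Deviations of same-numbered arrays correlated at 0.084 to 0.49, over 0.1 in 4 of 6 pairs, and those of unlike numbers at -0.37 to 0.15. The labels do not say that a number pairs samples across times, so the main fit left the number out. Of the 72 h arrays, 5 of 6 were closest to the 48 h array of their number, which is a hint from the data and not from the design. The block added a call for Csf1r (-0.12) among the genes named. A slide block was not run, because the headers give no slide. At 72 h 9 of the 37 mitosis and 7 of the 22 neutrophil genes were detected on no array, where a fall has at most a bound.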

Other observations

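Of the 2788 kept probes without a symbol, 372 were higher and 342 lower at 72 h than at 48 h (25.6% called by limma, adjusted over all kept probes), with log2 changes from -2.28 to 1.14 and a median of 0.0154. Of the 15558 kept probes with a symbol, 34.4% were called.

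Promoters of other lists were read for 1 motif each, on either strand, as descriptions of letters. The antioxidant response element, the letters TGACNNNGC, stood in 8 of the 25 NRF2 genes with a window, or 23.5% of their windows against 12.4% of all. By gene the share was 32%, against 16.8% of the 8075 tested genes with a window. For the ATF4 element TGATGCAA these values were 7 of 27 genes, 22.6% and 0.895% by window, and 25.9% and 0.78% by gene. The hypoxia response letters ACGTG stood in 13 of the 15 hypoxia response genes with a window, or 58.3% of their windows against 19.6%. By gene the share was 86.7%, against 29.9% of tested genes. The lysosomal letters TCACGTGA stood in 3 of 30 cathepsins and hydrolases and 3 of 11 proton pump subunits. By window the shares were 9.09% and 23.1%, against 0.974% of all. By gene they were 10% and 27.3%, against 2.39% of tested genes. The sterol element TCACCCCAC stood in 0 of 23 sterol and fatty acid genes, in 0.551% of all windows and in 0.619% of tested genes.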
